A study of Homo sapiens with 2 samples.

Results

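The let-7 seed family guide strands are the mature miRNAs, named 5p where both strands of a hairpin are named, that carry the let-7 seed at their 5′ end. Members were chosen by name: hsa-let-7a-5p, hsa-let-7b-5p, hsa-let-7c, hsa-let-7d-5p, hsa-let-7e-5p, hsa-let-7f-5p, hsa-let-7g-5p, hsa-let-7i-5p, hsa-miR-98 and hsa-miR-4500, written without the prefix for human from here on. All 10 members were listed among the 859 mature miRNAs of the count table. Small RNA was sequenced from A549, a human lung adenocarcinoma cell line grown in DMEM with serum. Cells were held for 24 h in 20% oxygen (normoxia) or for 24 h in 1.2% oxygen (hypoxia), and 1 library was made from the total RNA of each condition. Mature miRNAs received 4514818 counts in the normoxia library and 8600160 in the hypoxia library. With 1 library per condition no difference has a replicate check, and a difference between the libraries and an effect of oxygen cannot be told apart.

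A mature miRNA guides an Argonaute protein to messenger RNAs that pair with its seed, the bases next to its 5′ end. The let-7 family was found through its role in the timing of larval development in the nematode, and its best known targets in human cells include messages of the RAS genes, HMGA2 and LIN28. LIN28 proteins in turn bind let-7 precursors and block their processing, and low let-7 has been described in lung tumours.

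The mature sequences are shown because the members differ from each other at few bases. All 10 members were matched in RefSeq (GRCh38.p14), and all share the seed, bases 2 to 8 counted from 1 at the 5′ end, in capitals.
let-7a-5p: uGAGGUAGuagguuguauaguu
let-7b-5p: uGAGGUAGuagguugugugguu
let-7c: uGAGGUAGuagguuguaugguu
let-7d-5p: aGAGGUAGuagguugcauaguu
let-7e-5p: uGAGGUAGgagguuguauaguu
let-7f-5p: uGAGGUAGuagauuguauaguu
let-7g-5p: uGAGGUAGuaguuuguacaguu
let-7i-5p: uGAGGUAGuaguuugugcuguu
miR-98: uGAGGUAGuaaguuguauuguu
miR-4500: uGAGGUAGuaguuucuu

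Of the members, 9 are 22 bases long and miR-4500 is 17. With the base of let-7a-5p written first, let-7c differs from it by A19G, let-7e-5p by U9G and let-7f-5p by G12A. These are 1 base each, as is the difference between let-7b-5p and let-7c, G17A with the base of let-7b-5p first. Across the 36 pairs of the 22-base members the median was 3 differences and the highest was 6. Over its length miR-4500 differs from let-7g-5p by G15C and A17U, with the base of let-7g-5p first. Its first 14 bases, uGAGGUAGuaguuu, are also the first 14 of let-7g-5p and let-7i-5p and of no other listed mature miRNA. Values of separate members are therefore uncertain as far as the authors' counting could place a read of 1 member on another. The only other listed miRNA with the same seed was miR-4458, with 1 count in normoxia and 4 in hypoxia, and miR-202-3p was not listed.

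The 10 members come from 13 hairpins, each of which holds its member's sequence in the GENCODE annotation of GRCh38. let-7a-5p is made from 3 of them and let-7f-5p from 2, so their counts do not say which locus was used. On chromosome 9, MIRLET7A1 (chr9:94175957-94176036) and MIRLET7F1 (chr9:94176347-94176433) lie 310 bases apart, the latter 2400 bases before MIRLET7D, all in introns of a lincRNA gene on the same strand. MIRLET7A2 (chr11:122146522-122146593) lies in an intron of MIR100HG with MIR100. MIRLET7A3 and MIRLET7B (chr22:46113686-46113768) lie in exons of MIRLET7BHG with MIR4763 between them. MIRLET7C (chr21:16539828-16539911) follows MIR99A by 658 bases in an intron of MIR99AHG. MIRLET7E (chr19:51692786-51692864) lies between MIR99B and MIR125A in an intron of the protein-coding gene SPACA6. MIR98 and MIRLET7F2 (chrX:53557192-53557274) lie in introns of HUWE1, a ubiquitin ligase gene. Outside these clusters, MIRLET7G (chr3:52268278-52268361) lies in an intron of WDR82, MIRLET7I (chr12:62603686-62603769) lies in an intron of a lincRNA gene on the same strand, and MIR4500 (chr13:87618665-87618740) lies in an intron of MIR4500HG.

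Taken as a sum, the family held a small share of mature miRNA counts in both libraries. It received 63619 counts in normoxia, 1.41% of the mature total (exact Clopper-Pearson 95% interval 1.40% to 1.42%). In hypoxia it received 133020 counts, or 1.55% (1.54% to 1.56%). All intervals cover counting error only, since there is 1 library per condition. They treat counts as independent molecules. The libraries were amplified by PCR without molecular identifiers, so the intervals may be too narrow even for that error. miR-21-5p alone took 722090 counts per 1000000 mature counts (CPM) in normoxia and 683588 in hypoxia, so most of each total is 1 miRNA. With miR-21-5p left out of the total, the order of the libraries turned, with 5.07% in normoxia and 4.89% in hypoxia. The log2 ratio of hypoxia over normoxia for the summed family was 0.13 (exact conditional binomial 95% interval 0.12 to 0.15) on the mature total, but -0.053 on the total without miR-21-5p and -0.061 when the 10 top miRNAs of each library were taken out. The direction of the sum was thus set by the scaling. It also rested on 1 member, since without let-7f-5p the summed log2 ratio was -0.054 on the mature total.

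Levels of single members were compared as CPM, with no correction for length. let-7f-5p had 18596 counts in normoxia (4119 CPM, 4060 to 4178) and 50383 in hypoxia (5858 CPM, 5807 to 5910). It was the most abundant member in both libraries and ranked 18th and 16th among all mature miRNAs. let-7a-5p, the human strand identical to the nematode let-7, had 18579 counts in normoxia (4115 CPM, 4056 to 4175) and 36201 in hypoxia (4209 CPM, 4166 to 4253). In normoxia let-7f-5p and let-7a-5p could not be separated at this depth, with 1.00 counts of let-7f-5p per count of let-7a-5p (0.981 to 1.02). In hypoxia that figure was 1.39 (1.37 to 1.41). The change in the ratio of these strands, on which library scaling has almost no effect, was 0.48 on the log2 scale (interval from the counts 0.44 to 0.51). These strands differ at position 12 alone.

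Behind this pair came let-7b-5p, from the chromosome 22 cluster, with 7516 counts (1665 CPM) in normoxia and 14606 (1698 CPM) in hypoxia. let-7i-5p lay next to it in normoxia with 7257 counts (1607 CPM), and had 10977 (1276 CPM) in hypoxia. The count of let-7b-5p per count of let-7i-5p was 1.04 (1.00 to 1.07) in normoxia and 1.33 (1.30 to 1.36) in hypoxia. let-7g-5p, the product of the WDR82 intron, had 4704 counts (1042 CPM) in normoxia and 5822 (677 CPM) in hypoxia. let-7e-5p, from the cluster with miR-99b and miR-125a, had 4250 counts (941 CPM) in normoxia and 10253 (1192 CPM) in hypoxia. The places of let-7e-5p and let-7g-5p in the order of the family were thus exchanged between the libraries. There were 0.903 counts of let-7e-5p per count of let-7g-5p in normoxia (0.867 to 0.942) and 1.76 in hypoxia (1.71 to 1.82).

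The remaining members were lower by a wide step. let-7d-5p, which shares the chromosome 9 cluster with hairpins of let-7a and let-7f, had 1174 counts (260.0 CPM) in normoxia and 2170 (252 CPM) in hypoxia. miR-98, from the HUWE1 intron, had 768 counts (170.1 CPM) in normoxia and 1303 (152 CPM) in hypoxia. let-7c, from the MIR99AHG intron, had 669 counts (148 CPM) in normoxia and 1262 (147 CPM) in hypoxia. miR-98 and let-7c did not differ beyond counting error in hypoxia, at 1.03 counts of miR-98 per count of let-7c (0.955 to 1.12), and lay at 1.15 (1.03 to 1.28) in normoxia. miR-4500 was the least abundant member, with 106 counts in normoxia (23.5 CPM, 19.2 to 28.4) and 43 in hypoxia (5.0 CPM, 3.62 to 6.73).

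**Figure D1:**
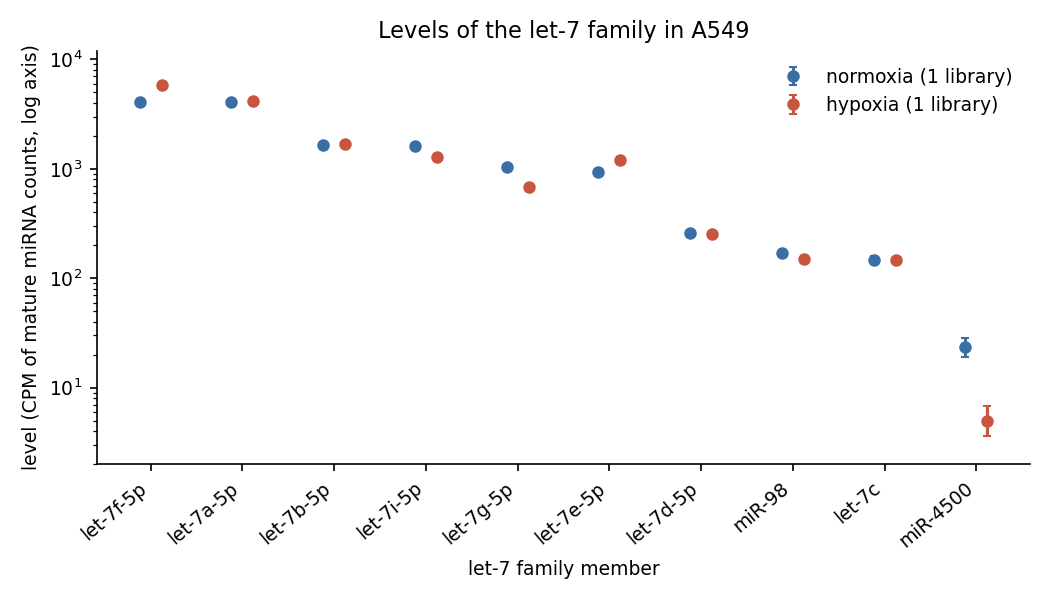
Level of each member in CPM of mature miRNA counts, on a log axis, in the normoxia library (blue) and the hypoxia library (red), with exact Clopper-Pearson 95% intervals that are smaller than the point for most members. let-7f-5p and let-7a-5p share a level near 4119 CPM in normoxia, and miR-4500 lies lowest in both libraries.

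Shares within the family do not depend on how the libraries are scaled, but each depends on the other members in the sum. let-7f-5p made up 29.2% of the summed member counts in normoxia (28.9% to 29.6%) and 37.9% in hypoxia (37.6% to 38.1%). This was the only member whose share was larger in hypoxia apart from let-7e-5p, which went from 6.68% (6.49% to 6.88%) to 7.71% (7.57% to 7.85%). let-7a-5p went from 29.2% to 27.2% and let-7b-5p from 11.8% to 11.0%, but with let-7f-5p left out of the sum, a check added after seeing the data, they went the other way, from 41.3% to 43.8% and from 16.7% to 17.7%. In percentage points, the largest losses of share were those of let-7i-5p, from 11.4% (11.2% to 11.7%) to 8.25% (8.10% to 8.40%), and let-7g-5p, from 7.39% (7.19% to 7.60%) to 4.38% (4.27% to 4.49%), and both were also lower in hypoxia without let-7f-5p in the sum. let-7d-5p, miR-98 and let-7c each held between 0.949% and 1.85% in either library. The smallest of these shares was that of let-7c, at 1.05% (0.974% to 1.13%) in normoxia and 0.949% (0.897% to 1.00%) in hypoxia. miR-4500 went from 0.167% (0.136% to 0.201%) to 0.0323% (0.0234% to 0.0435%). With let-7f-5p left out of the sum, let-7c (1.49% and 1.53%) and let-7d-5p (2.61% and 2.63%) also turned to a larger share in hypoxia, with overlapping intervals. The shares of miR-98 and miR-4500 were still smaller in hypoxia. For miR-98 the intervals overlapped, at 1.59% to 1.83% in normoxia and 1.49% to 1.66% in hypoxia.

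**Figure D2:**
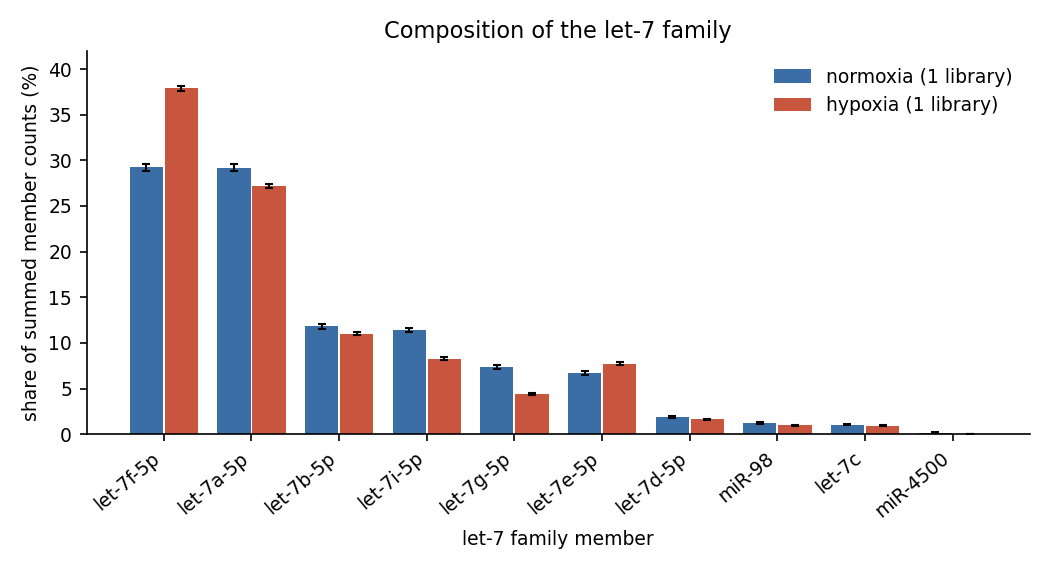
Share of the summed counts of the 10 members taken by each member, in percent, with exact Clopper-Pearson 95% intervals, for the normoxia library (blue bars) and the hypoxia library (red bars). The bar of let-7f-5p stands at 29.2% in normoxia and 37.9% in hypoxia, while those of let-7i-5p and let-7g-5p are shorter in hypoxia.

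The ratio between the libraries was read by a rule of size, an absolute log2 ratio of at least 0.9 among miRNAs with a mean log2 CPM above 3. Of the 859 mature miRNAs, 339 passed the expression filter. Among these 12 were higher in hypoxia (3.54%) and 11 were lower (3.24%). The split depended on the scaling, with 52.2% of these miRNAs higher on the mature total, 34.8% under TMM (8 higher, 15 lower), DESeq2 size factors or the total of every feature, 22.7% on the total without miR-21-5p, 21.7% without the top 10 miRNAs, and 65.2% with the deeper library thinned. All 10 members passed the filter, 0 were higher by the rule and 1, miR-4500, was lower. That call rests on a single miRNA of low abundance, which passed the filter only through its level in normoxia, so nothing is read from it against the background share. TMM scaling shifted log2 ratios past the filter by -0.11 and moved their median over the 339 miRNAs from 0.079 to -0.035. On the mature total the median of the 10 members was -0.029, with 4 above 0 and 6 below, against 202 above and 137 below among all miRNAs past the filter. Under TMM the median of the members was -0.14, with 2 above and 8 below, against 161 above and 178 below.

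miR-4500 had a log2 ratio of -2.16 (-2.78 to -1.71), and under the 7 other scalings, prior counts and depths tried it lay between -2.35 and -1.95. Its counts were 0.886% of the summed counts of let-7g-5p and let-7i-5p in normoxia and 0.256% in hypoxia. Because their first 14 bases are the same, reads of let-7g-5p or let-7i-5p that end early and reads of miR-4500 may not have been separated in counting, which was not tested. let-7g-5p was the next lowest member, outside the rule, with a log2 ratio of -0.62 (-0.68 to -0.57). let-7i-5p was at -0.33 (-0.38 to -0.29). Both stayed below 0 in each of the 7 alternatives.

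let-7f-5p had the highest log2 ratio of the family, 0.51 (0.48 to 0.53), and lay between 0.31 and 0.51 in the alternatives. let-7e-5p followed at 0.34 (0.29 to 0.39) and kept a positive log2 ratio in all of them. miR-98 was at -0.17 (-0.30 to -0.037) and let-7d-5p at -0.043 (-0.15 to 0.060), and neither turned positive in any of the 7. For let-7a-5p the log2 ratio was 0.033 and for let-7b-5p 0.029 on the mature total, and both were negative in 5 of the 7 alternatives. let-7c was at -0.014 (-0.15 to 0.12) and turned positive, at 0.044, in the thinned data. No direction can be given for let-7a-5p, let-7b-5p or let-7c. Relative to let-7a-5p, whose scale they share within a library, the changes of let-7b-5p (-0.0038, interval -0.051 to 0.044), let-7c (-0.047, -0.18 to 0.091) and let-7d-5p (-0.076, -0.18 to 0.029) were not detectable at this depth.

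**Figure D3:**
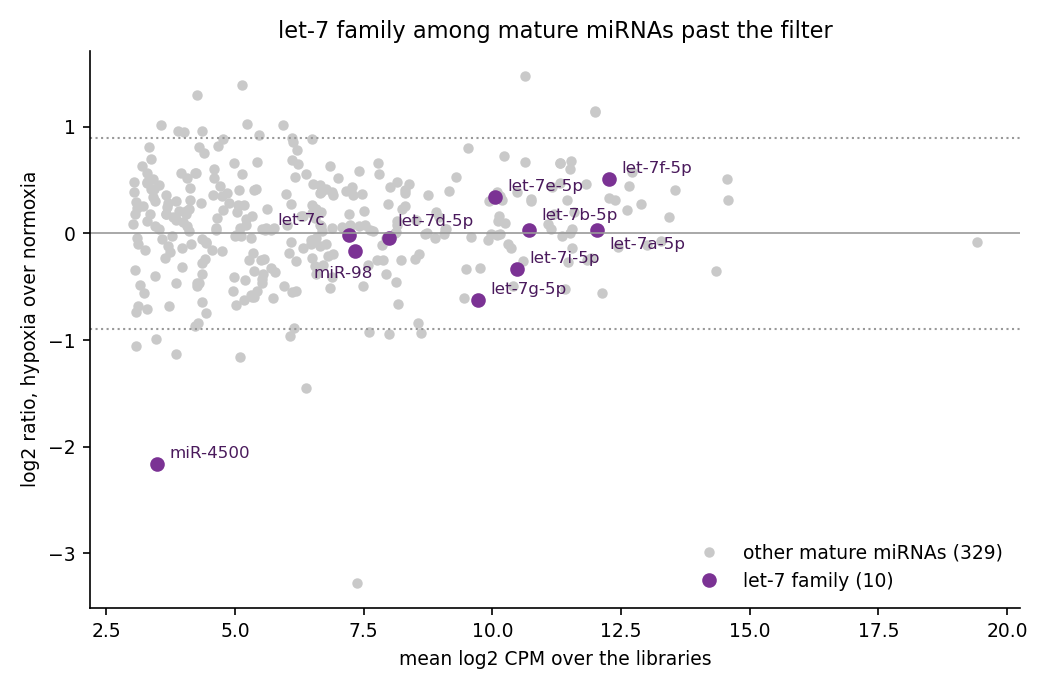
log2 ratio of hypoxia over normoxia against mean log2 CPM for the 339 mature miRNAs past the filter, with the 10 members in purple, the other 329 in grey and dotted lines at the size rule of 0.9 in both directions. miR-4500 alone among the members lies outside the lines, and the sign of let-7a-5p, let-7b-5p and let-7c changes with the scaling or depth.

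The 3p strands of the same hairpins, which usually are the passenger strands discarded when Argonaute is loaded, were read beside their guides. let-7c-3p and miR-98-3p were not listed, and the other 9 of 11 named 3p strands all passed the filter. None passed the size rule, against 3.54% higher and 3.24% lower among all 339 miRNAs past the filter. On the mature total 7 were above 0 and 2 below (202 and 137 of all), with a median log2 ratio of 0.31 (0.079 for all), and under TMM 6 were above and 3 below (161 and 178 of all). let-7a-3p turned negative in 5 of the 7 alternatives and let-7f-1-3p positive in 1. The sequences of the 3p strands of let-7i and let-7g are shown because these hairpins gave the most abundant 3p strand and the widest change of the 3p strand against its guide. Bases 2 to 8 are in capitals and differ from the let-7 seed and from each other.
let-7i-3p: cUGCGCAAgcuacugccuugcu
let-7g-3p: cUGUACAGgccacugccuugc

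let-7i-3p was far more abundant than the other 3p strands of the family, with 7025 counts in normoxia (1556 CPM) and 16537 in hypoxia (1923 CPM). In normoxia it nearly equalled its guide, at 0.968 counts per count of let-7i-5p (0.937 to 1.00), and in hypoxia it exceeded it, at 1.51 (1.47 to 1.54). The change of that ratio was 0.64 on the log2 scale (0.58 to 0.70). let-7g-3p had 244 counts (54.0 CPM) in the normoxia library and 752 (87.4 CPM) in the other, and its log2 ratio was 0.69 (0.48 to 0.91). Per 100 counts of let-7g-5p there were 5.19 counts of let-7g-3p in normoxia (4.54 to 5.90) and 12.9 in hypoxia (11.96 to 13.9), a change of 1.32 on the log2 scale (1.10 to 1.53). For the hairpins of let-7g, let-7i and let-7d the guide was below 0 and the 3p strand above 0 in each of the 7 alternatives, although for let-7d-5p the interval of the log2 ratio included 0. On the mature total alone, 17 of the 67 pairs of strands outside the family with both past the filter (25.4%) also had the 5p strand below 0 and the 3p strand above 0.

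let-7d-3p had 270 counts in normoxia and 743 in hypoxia, or 23.0 per 100 counts of its guide (20.1 to 26.3) and 34.2 (31.5 to 37.2). The hairpins of let-7a, let-7b and let-7e gave few 3p counts, between 2.35 and 4.42 per 100 guide counts for let-7a-3p, let-7b-3p and let-7e-3p. On the log2 scale the change of this ratio was 0.25 (0.046 to 0.46) for let-7b-3p, while for let-7a-3p, 0.028 (-0.11 to 0.16), and let-7e-3p, 0.11 (-0.22 to 0.45), it was not detectable at this depth. Nor was it for let-7a-2-3p, at 0.307 and 0.373 per 100 counts of let-7a-5p and a change of 0.28 (-0.17 to 0.73). In the let-7f hairpins the ratio moved the other way. let-7f-1-3p went from 0.785 per 100 counts of let-7f-5p (0.663 to 0.924) to 0.546 (0.483 to 0.615), and let-7f-2-3p from 0.543 (0.442 to 0.660) to 0.276 (0.232 to 0.326). Since let-7f-5p sums over both of its loci, the guide made from each hairpin is not known.

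**Figure D4:**
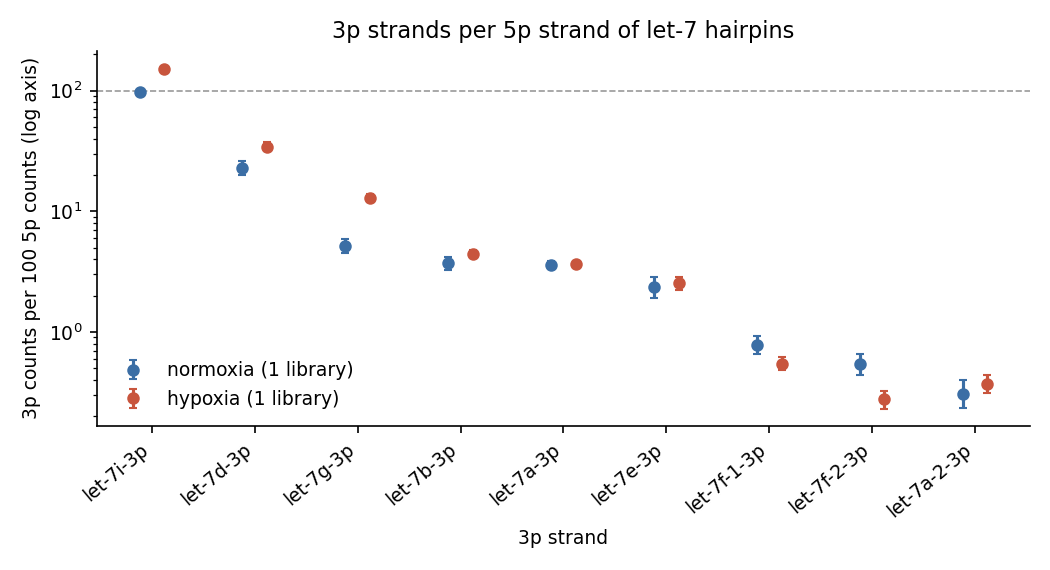
Counts of each listed 3p strand per 100 counts of the 5p strand of the same name, on a log axis, in the normoxia library (blue) and the hypoxia library (red) with exact conditional binomial 95% intervals. The dashed line marks equal counts. let-7i-3p stands at 0.968 counts per guide count in normoxia, with an interval that reaches the line, and at 1.51 in hypoxia. let-7g-3p shows the widest gap between the libraries.

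**Figure D5:**
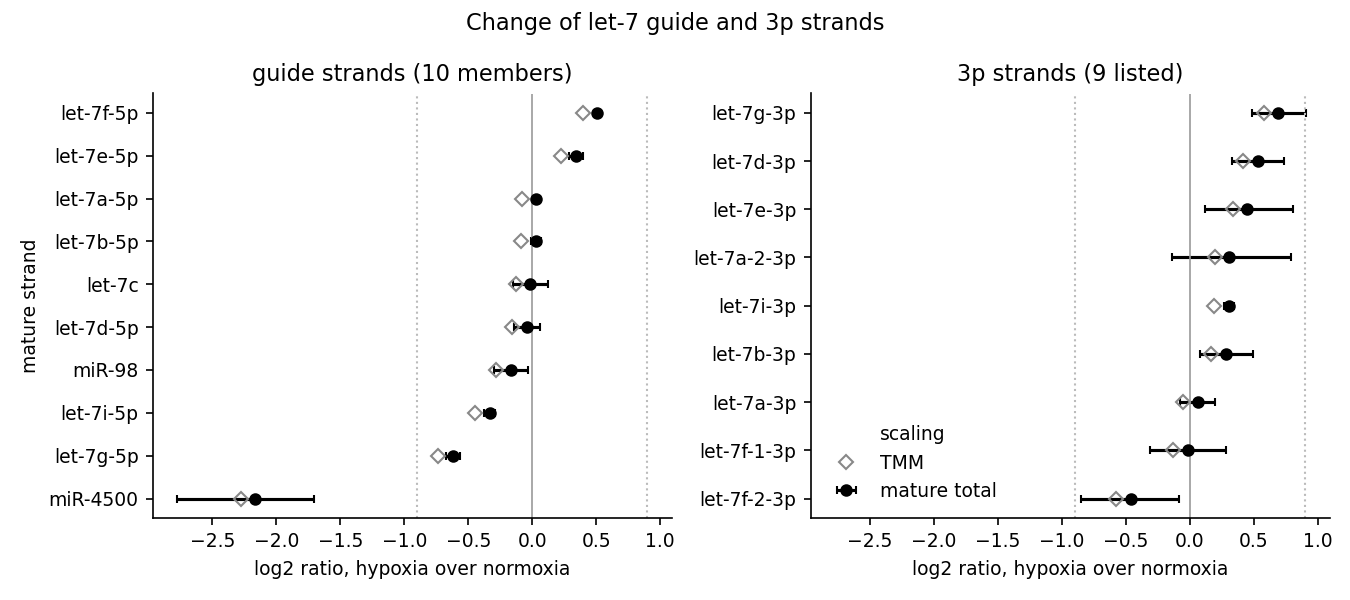
log2 ratios of hypoxia over normoxia for the 10 guide strands (left) and the 9 listed 3p strands (right), as black points on the mature total with exact conditional binomial 95% intervals and as open diamonds under TMM scaling, with dotted lines at the size rule. let-7g, let-7i and let-7d have a guide below 0 and a 3p strand above 0 under both scalings, while let-7a-5p, let-7b-5p and let-7a-3p change sign between them.

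Apart from miR-4763, the neighbours chosen from the host genes of let-7 hairpins are members of the miR-99/100 and miR-125 families, the latter related to lin-4 of the nematode. Of the 7 neighbours named, 6 were listed, 5 passed the filter, 0 passed the size rule (3.54% of all past the filter were higher and 3.24% lower), and 4 of those 5 were above 0, against 202 of the 339 on the mature total and 161 under TMM. miR-99b-5p, with 9967 and 21521 counts in normoxia and hypoxia, was at 0.18, and turned negative in 2 of the 7 alternatives. miR-125a-5p, with 26117 and 57814 counts, was at 0.22, so let-7e-5p at 0.34 was the highest of the 3 5p strands of the SPACA6 intron on this scale. The 3p strands of that intron are not part of this order. miR-99a-5p, with 4548 and 8609 counts, was at -0.0091, close to let-7c from the same intron at -0.014. On chromosome 11, miR-100-5p was at 0.28 with 31001 and 71501 counts, and let-7a-5p, which sums over 3 loci, was at 0.033. miR-125b-5p, at 0.31, comes from hairpins in the same host genes as MIRLET7A2 and MIRLET7C, 46677 and 50325 bases from them, and miR-4763-5p had 3 and 6 counts.

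Families with another seed that are also made from several loci were set beside let-7. The 5 miR-30 5p strands took 2.41% of the normoxia total and 3.03% of the hypoxia total, and their summed log2 ratio was 0.33 on the mature total and 0.22 under TMM. Their members ran from -0.025 for miR-30e-5p to 0.60 for miR-30b-5p. The 3 miR-29 3p strands, known for targeting collagen messages, took 0.675% and 0.557%, a summed log2 ratio of -0.28 on the mature total and -0.39 under TMM. All 3 were below 0, from -0.61 for miR-29b-3p to -0.23 for miR-29c-3p. With miR-4500 left aside, the let-7 members spread from -0.62 to 0.51, a range over 9 strands that is not set against those of 5 and 3, since a range widens with the number of members. miR-210, the miRNA best known for its induction by hypoxia-inducible factor, stood at 954 CPM under 20% oxygen (4307 counts) and at 2657 CPM under 1.2% oxygen (22849 counts), with a log2 ratio of 1.48 (1.43 to 1.52).

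By level in both libraries, the mature miRNAs outside the family nearest to let-7f-5p were miR-26a-5p, at a Euclidean distance of 0.13 in log2 CPM over the 2 libraries, miR-181a-5p at 0.21 and miR-106b-5p at 0.52. miR-26a-5p had 4410 CPM in normoxia and 5545 CPM in hypoxia, against 4119 and 5858 CPM for let-7f-5p.

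The label of the cells was checked against miRNA markers of cell types. All 6 epithelial markers were listed, with a summed level of 1168 CPM in normoxia and 1362 CPM in hypoxia, and miR-200b-3p, the most abundant at 879.8 and 1085 CPM, carried the difference. miR-141-3p (37.2 and 25.5 CPM), miR-429 (91.5 and 87.4 CPM) and miR-205-5p (2.66 and 1.74 CPM) were lower in hypoxia on this scale. Of the 4 erythroid and leukocyte markers, miR-144-3p and miR-223-3p were not listed, miR-142-3p had 5 and 6 counts, and the list summed to 19.3 and 22.9 CPM, nearly all of it miR-451a. The endothelial marker miR-126-3p was at 179 and 189.5 CPM, above each epithelial marker but miR-200b-3p. The liver marker miR-122-5p had 4 counts in each library. Of the 3 muscle markers named (miR-1, miR-133a and miR-206) only miR-133a was listed, with 0 and 18 counts, and the neural markers miR-9-5p and miR-124-3p summed to 52.1 and 53.1 CPM. The part of other cells in the let-7 values was not tested, and in bulk RNA fewer cells of a type and less RNA per cell cannot be told apart.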

How the data were processed

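The deposited table gives raw counts, not normalized, for each small RNA feature in 1 column per library. Libraries were made per the labels by ligation with a small RNA kit for SOLiD, amplified by PCR and size-selected. The submitters' processing notes name the build hg19, and the aligner, the counting tool and its use of strand are not given in the sources used here. No feature in the table has fewer than 3 counts summed over its columns, so a strand that is absent from it may still have been read. The 859 mature miRNAs were used. Of the other features of the 5475, miRNA entries outside the mature set are described under the flagged results. The rest served only as a denominator.

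CPM were counts per 1000000 mature miRNA counts, and log2 ratios were taken between log2 CPM as edgeR 4.0.16 in R 4.3.3 computes them (prior count 2). Intervals are at 95%: Clopper-Pearson for shares, conditional binomial for ratios, and a normal interval of the log ratio from the counts for changes of a ratio between strands. The calculation was tested on simulated data. The condition was not tested, so there are no p-values. Alternatives were TMM, DESeq2 1.42.0 size factors, other totals, thinning of the deeper library, a prior count of 0.5, no filter, a threshold of 1, and other members or denominators. Totals were brought to the same geometric mean, so that the filter was not moved by their size.

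The miRNAs named are the members, their 3p strands, miR-4458 and miR-202-3p, the genomic neighbours, the miR-30 and miR-29 strands, miR-210, miR-21-5p, the cell type markers, the 3 mature miRNAs outside the family nearest to the most abundant member, and the members next to the size rule. Members and lists were chosen with earlier results of these data known. Hairpin positions are from GENCODE 29 (GRCh38), and no position was converted between builds. Python 3.11.15 with scipy 1.17.1 was used for the rest.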

Additional observations from a re-analysis of the deposited data

Results flagged for a closer look

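The table also lists 12 hairpin entries that hold the sequence of a member and are counted apart from the mature miRNAs. They drew attention because they lie outside the counts used above and exceed the 3 counts that a count of 0 allows. Summed, they had 593 counts in normoxia and 757 in hypoxia, which is 131 and 88.0 CPM of the mature total, a log2 ratio of -0.58 (-0.73 to -0.42). This is equal to 0.932% and 0.569% of the guide counts of the family. In 11 of the 12 the CPM was lower in hypoxia, and the exception was the entry that holds the miR-98 sequence, with 32 and 67 counts, whose identifier was not found in GENCODE 29. The 494 other miRNA entries outside the mature set with a count in either library summed to 2210.3 CPM in normoxia and 1990.1 CPM in hypoxia, at a log2 ratio of -0.15, and 188 of them (38.1%) were lower. They were not matched to the 12 by count, and features with as few as 3 summed counts are listed. The let-7i hairpin had 141 and 121 counts and the let-7g hairpin 18 and 16. Which reads were placed on these entries was not tested.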

How the results depend on the processing

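No paired analysis was possible because there is a single library on each side, which also means that none could be left out. The summed log2 ratio of the family, 0.13 on the mature total, was 0.020 under TMM, 0.064 with DESeq2 size factors, 0.040 on the total of every feature, -0.053 on the total without miR-21-5p, -0.061 without the 10 most abundant miRNAs and -0.054 without let-7f-5p. It was 0.13 with a prior count of 0.5 and with miR-4458 added, and 0.14 after thinning and without miR-4500. The family's share was 0.986% in normoxia and 1.01% in hypoxia of all counts, 5.07% and 4.89% without miR-21-5p in the total, and 1.61% and 1.79% with the 3p strands added, by construction. The 12 higher and 11 lower miRNAs became 5 and 18 without the 10 most abundant miRNAs, 5 and 17 without miR-21-5p, and 113 and 64 with no filter, as 859 miRNAs were then considered. With a threshold of 1 there were 8 higher and 6 lower. miR-4500 was the only member past the rule under each of these settings. Of the 10 members 7 kept their sign in all 7 alternatives. A split of the members by position 12 and the shares without let-7f-5p were added after seeing the data, and nothing is read from the split. The cause of the scaling shifts was not tested. Depth limits miR-4500, with 43 counts in hypoxia, and miR-4458.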

Other observations

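Across the table, 73 hairpins had a 5p and a 3p strand of the same stem name that both passed the expression filter. let-7g had the 3rd largest absolute difference between the log2 ratios of its strands, 1.31, after miR-221 at 1.53 and miR-744 at 1.34. let-7i ranked 21st with 0.64 and let-7d 24th with 0.57. The median absolute difference was 0.42 over the 67 hairpins outside the let-7 family, and 2 of these lay as far out as let-7g. let-7i was 1 of 2 hairpins with more 5p counts in normoxia and more 3p counts in hypoxia, and the other was miR-574. For let-7i in normoxia, the interval of 3p counts per 5p count (0.937 to 1.00) included equal counts. miR-221, miR-744 and miR-574 are named because of these values. No test was made, and hairpins are not replicates.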
